A study of Mus musculus with 6 samples.

Results

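Disome footprints of nuclear genes for the respiratory chain and the ATP synthase were examined in mouse liver. The genes are those of a list of 49 Ensembl identifiers, a rule that uses no measured value. The list holds 14 subunits of complex I, 4 of complex II, 10 of complex III with cytochrome c, 9 of complex IV and 12 of the ATP synthase. The tables listed 39 of the 49 among their 8941 genes, and these 39 genes were described. Ndufs7, Ndufa1, Uqcrh, Uqcr11, Cycs, Cox5a, Cox6b1, Cox6c, Atp5g2 and Atp5h were not analysed here. A disome footprint is the piece of messenger RNA covered by a pair of ribosomes that have run up against each other, so its level reports stacked ribosomes on a gene.

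The livers came from male C57BL/6JRj mice of 11 to 12 weeks kept in 12 h of light and 12 h of dark, with no genetic change or drug given in the labels. Collection was at 0, 2 and 12 h of zeitgeber time (ZT), which counts from the moment the lights go on. Each time point had 2 libraries. Lysates of 2 mice were pooled, and the labels do not say whether both libraries of a time point came from separate pools, so the spread between them may be technical. The same lysis with cycloheximide and the same digestion with 650 U of RNase I for 45 min were used for all 6 libraries. Values are RPKM, reads per kilobase of gene model with a scale per library, and levels of different genes were compared only on this scale, which is per length. The whole reads behind the values could be recovered and totalled 6346387 to 12322651 per library. The tables carry no gene symbols, so the liver label was not checked against marker genes. Messenger RNA amounts and single ribosome footprints were not analysed here. More messenger RNA of a gene and more stacked ribosomes on each messenger RNA therefore cannot be told apart. In such whole tissue, fewer cells of a type and less RNA per cell cannot be told apart.

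The respiratory chain passes electrons from NADH, through complex I, or from succinate, through complex II, to complex III, cytochrome c and complex IV, which reduces oxygen. The ATP synthase uses the proton gradient that this builds across the inner mitochondrial membrane. Most subunits are encoded in the nucleus, translated in the cytosol and imported, and hepatocytes, which are rich in mitochondria, draw on this pathway for glucose and urea synthesis.

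Nearly all of these genes lay high among the genes listed. Their median was 254 RPKM against 7.47 RPKM over all 8941 genes, and 35 of the 39 had a mean above 100 RPKM. The levels ran from 19.0 ± 14.0 RPKM (SD, n = 6) for Cox7c to 2180.2 ± 204 RPKM (SD, n = 6) for Atp5e, 115-fold apart. Cyc1, the gene with the next lowest level, had 64.9 ± 16.5 RPKM (SD, n = 6). Short genes in these tables had higher RPKM in general. Among the 2240 listed genes with a gene model of 54 to 864 nucleotides the median was 20.9 RPKM, and 26 of the 27 genes of the pathway in this class were above it. All 7 genes of the next class, of 867 to 1398 nucleotides, and all 5 of 1399 to 2232 nucleotides lay above the medians of their classes, 10.5 and 5.58 RPKM. Spearman's rho between mean RPKM and length was -0.13 over the 39 genes and -0.47 over all genes listed, a description across genes that share libraries.

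**Figure D1:**
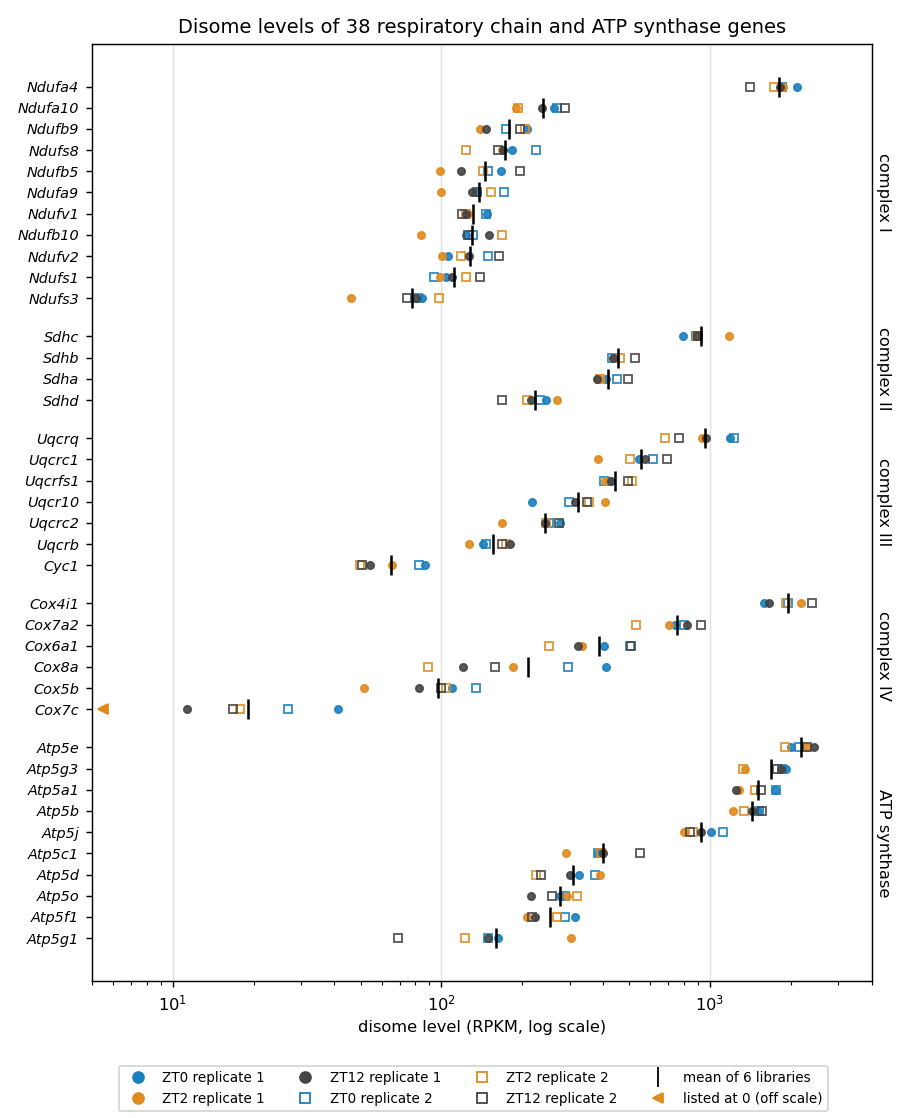
Disome level of 38 of the 39 genes in RPKM on a log axis, 1 row per gene and grouped by complex, with 1 mark per library and a bar at the mean of the 6 libraries. Atp5e, Cox4i1, Ndufa4, Atp5g3, Atp5a1 and Atp5b stood above the rest, and Cox7c was lowest and listed at 0 in ZT2 replicate 1.

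**Figure D2:**
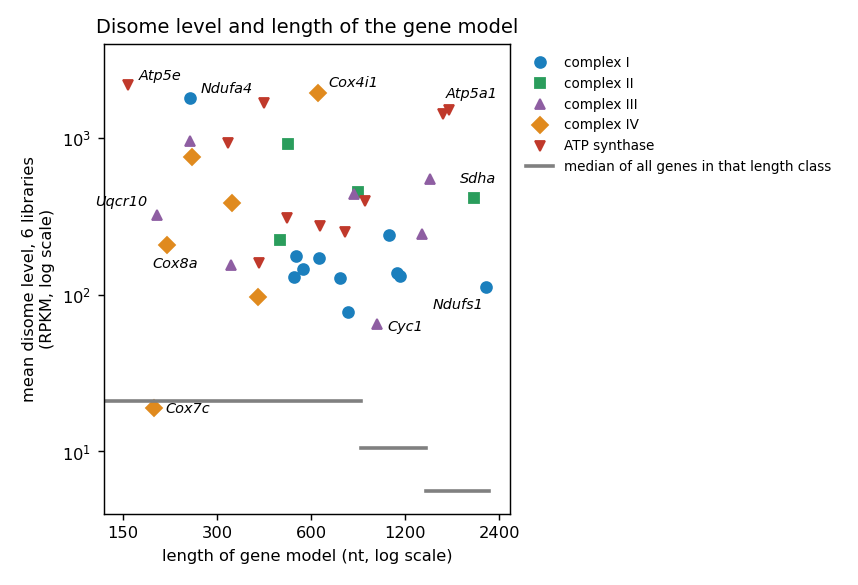
Mean disome level over 6 libraries in RPKM against the length of the gene model in nucleotides, both on log axes, with 1 point for each of 38 genes, and grey lines at the median of all listed genes in each length class. Cox7c alone lay below its line.

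A group of 6 genes stood above the others in every library, namely Atp5e, Cox4i1, Ndufa4, Atp5g3, Atp5a1 and Atp5b. Together they held 52.1% ± 0.642 (SD, n = 6) of the reads on the 39 genes. Within this group, no neighbours in the order differed by more than the larger of their SDs over libraries. Of the 38 steps between neighbours in the whole order, 4 exceeded that spread. They were the steps from Atp5b to Uqcrq, from Sdhc to Cox7a2, from Cox7a2 to Uqcrc1, and from Cyc1 to Cox7c. The other 34 steps were within it, so by this measure the order inside the stretch from Uqcrc1 to Cyc1 was not resolved step by step. Compared within each library, 4 steps kept their order in all 6. They were Atp5b to Uqcrq, Cox7a2 to Uqcrc1, Cox5b to Ndufs3 and Cyc1 to Cox7c. Sdhc was above Cox7a2 in 5 of the 6 libraries.

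Complex I genes were in the lower part of the 39 genes, with 1 exception, though all were above the median of all genes listed, 7.47 RPKM. The core subunits carry the flavin and iron-sulfur centres that take electrons from NADH to ubiquinone. Ndufv1, which binds NADH and the flavin, had 131 ± 12.8 RPKM (SD, n = 6), and Ndufs1, the largest subunit, had 112 ± 17.1 RPKM (SD, n = 6). Ndufs8, an iron-sulfur subunit, had 172 ± 32.8 RPKM (SD, n = 6). Ndufv2, which holds an iron-sulfur centre, had 127 ± 24.7 RPKM (SD, n = 6). Ndufs3 was the lowest gene of the complex, with 84.4 and 81.9 RPKM in the ZT0 libraries, 46.2 and 98.3 in those of ZT2 and 80.2 and 74.7 in those of ZT12. Its ZT2 libraries differed 2.13-fold and enclosed all the other libraries. The accessory subunits Ndufa9, Ndufa10, Ndufb5, Ndufb9 and Ndufb10 had means of 130.4 to 239.8 RPKM. Ndufa10 was the highest of these, with 263 and 269 RPKM in the ZT0 libraries, 190.0 and 193 in those of ZT2 and 236 and 288 in those of ZT12, and its ZT2 libraries were below all others. Ndufb10 had 123 and 131 RPKM in the ZT0 libraries, 83.8 and 169 in those of ZT2 and 151 and 125 in those of ZT12, and its ZT2 libraries were its lowest and its highest.

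Ndufa4 (ENSMUSG00000029632) was the exception, with 2113 and 1859.8 RPKM in the ZT0 libraries, 1869 and 1727 in those of ZT2 and 1827 and 1404 in those of ZT12. The protein was first described in complex I and is now placed with complex IV. Its level was 7.73 ± 1.72 (SD, n = 6) times that of Ndufa10, the next gene of the list's complex I, and the ratio was 4.88 to 9.84 over the libraries. Without Ndufa4, the 11 other listed complex I genes ran from 77.6 to 239.8 RPKM.

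All 4 complex II subunits were listed. Complex II is succinate dehydrogenase, and it holds each of its subunits once. Sdhc, a membrane anchor, was highest, with 791 and 890.4 RPKM in the ZT0 libraries, 1173 and 894 in those of ZT2 and 895 and 906 in those of ZT12. Sdhd, the other anchor, was lowest, with 244 and 234 RPKM in the ZT0 libraries, 270.0 and 209 in those of ZT2 and 216 and 169 in those of ZT12. Sdhc was 4.20 ± 0.703 (SD, n = 6) times Sdhd and above it in all 6 libraries, at 3.24 to 5.37 times. The catalytic subunits lay between the anchors, Sdha with the flavin at 418 ± 45.3 RPKM (SD, n = 6), and Sdhb with the iron-sulfur centres with 438 and 433 RPKM in the ZT0 libraries, 441 and 464 in those of ZT2 and 434 and 528 in those of ZT12. Their ratio, Sdhb over Sdha, was 1.10 ± 0.0802 (SD, n = 6), and Sdhb was the higher in 5 of 6 libraries.

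In complex III, levels spanned a wide range. Uqcrq, a small accessory subunit, was highest, with 1186 and 1234 RPKM in the ZT0 libraries, 933 and 679 in those of ZT2 and 970.1 and 765 in those of ZT12. Both ZT0 libraries were above the other 4. Uqcrc1, a core protein, had 546 and 612 RPKM in the ZT0 libraries, 383 and 504 in those of ZT2 and 572 and 693 in those of ZT12, with its 2 lowest values at ZT2. It was 2.27 ± 0.213 (SD, n = 6) times Uqcrc2, the other core protein, which had 243 ± 39.7 RPKM (SD, n = 6). Cyc1, the cytochrome c1 that hands electrons to cytochrome c, was lowest (ENSMUSG00000022551), with 86.8 and 82.9 RPKM in the ZT0 libraries, 65.5 and 49.8 in those of ZT2 and 54.0 and 50.6 in those of ZT12. The ZT0 libraries were above the other 4. Uqcrfs1, the Rieske iron-sulfur protein, which passes electrons to cytochrome c1, had 444 ± 47.6 RPKM (SD, n = 6), 4.83 to 10.3 times Cyc1 in the libraries. The small subunits Uqcr10 and Uqcrb had 323 ± 63.7 RPKM (SD, n = 6) and 156 ± 20.4 RPKM (SD, n = 6).

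Complex IV held both Cox4i1, near the top of the order, and Cox7c, at the bottom. Cox4i1, the largest of its nuclear subunits, had 1585 and 1950.3 RPKM in the ZT0 libraries, 2189 and 1927 in those of ZT2 and 1657 and 2399.9 in those of ZT12, and the time points overlapped. Cox7a2, a small subunit, had 741 and 801 RPKM in the ZT0 libraries, 701 and 532 in those of ZT2 and 824 and 923 in those of ZT12, with its 2 lowest values at ZT2. Cox6a1, another small subunit, was at 252 to 508 RPKM. Cox5b, which binds zinc, had 109.8 and 135 RPKM in the ZT0 libraries, 51.3 and 104 in those of ZT2 and 82.5 and 100.1 in those of ZT12. Its ZT2 libraries differed 2.02-fold, and the lower was the lowest of all. Cox7c (ENSMUSG00000017778), also a small subunit, had 41.3 and 26.8 RPKM in the ZT0 libraries, 0 and 17.8 in those of ZT2 and 11.3 and 16.7 in those of ZT12. These rested on 55, 39, 0, 26, 28 and 39 reads in the same order, so Cox7c was the only gene of the 39 with under 100 reads in any library. The count of 0 in ZT2 replicate 1 allows up to 2.57 RPKM (3 reads), for counting error only. That library listed 97 genes at 0 in all, and ZT2 replicate 2 listed 250, against 4 in each ZT0 library, 4 in ZT12 replicate 1 and 52 in ZT12 replicate 2, and the part of this in the value of Cox7c was not tested.

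The 10 ATP synthase genes had means from 159 RPKM to 2180.2 RPKM. Among the genes of the F1 part, Atp5e (ENSMUSG00000016252), the small epsilon subunit, was highest, with 1995 and 2152 RPKM in the ZT0 libraries, 2293 and 1902 in those of ZT2 and 2442 and 2297 in those of ZT12. Atp5a1 and Atp5b, the alpha and the catalytic beta subunit, had 1511 ± 223 RPKM (SD, n = 6) and 1428 ± 128 RPKM (SD, n = 6). Their ratio was 1.06 ± 0.111 (SD, n = 6) and ran from 0.874 to 1.16. Both are present in more copies per enzyme than gamma, delta and epsilon. The gamma gene, Atp5c1, had 399.9 ± 83.4 RPKM (SD, n = 6), so that Atp5a1 was 3.88 ± 0.775 (SD, n = 6) times and Atp5b 3.65 ± 0.495 (SD, n = 6) times its level. The epsilon gene was at 5.64 ± 1.29 (SD, n = 6) times Atp5c1 and 7.35 ± 1.66 (SD, n = 6) times Atp5d, the delta gene. A link between these levels and copies per enzyme was not tested.

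Atp5g1 and Atp5g3 encode the c subunit of the membrane ring, with closely alike mature proteins behind different import signals. Atp5g3 had 1913 and 1861 RPKM in the ZT0 libraries, 1354 and 1329 in those of ZT2 and 1846 and 1780.0 in those of ZT12, and both ZT2 libraries were below the other 4. Atp5g1 had 162 and 149 RPKM in the ZT0 libraries, 303 and 122 in those of ZT2 and 149 and 68.7 in those of ZT12, with its highest and its second lowest value at ZT2. Atp5g3 was above Atp5g1 in all 6 libraries, at 4.46 to 25.9 times. How reads that map to several places were counted is not stated, so the division between these 2 genes is uncertain. The stalk genes Atp5j, Atp5o and Atp5f1 had 928 ± 118 RPKM (SD, n = 6), 275 ± 36.1 RPKM (SD, n = 6) and 254 ± 43.6 RPKM (SD, n = 6).

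Between ZT0 and ZT2, most of the 39 genes had lower mean log2 values at ZT2, but no gene passed the test. The test was limma on log2(RPKM + 1) over the 8355 genes averaging 1 RPKM or more, with adjustment by Benjamini-Hochberg over all of them and a threshold of 0.05. All 39 genes passed the filter. Of them, 0 were called where the background was 0.0239% of the genes tested. At an unadjusted p under 0.05, limma counted 9 of 39, 1 higher and 8 lower, where 13.7% of all genes did, 5.4% higher and 8.27% lower. Voom with limma on the recovered reads also called 0. The mean log2 change was below 0 for 29 genes and above 0 for 10, where 53.6% of all genes were below and 46.4% above. The median was -0.24, against -0.040 over all genes tested, and the median SE of a gene was 0.20. Both ZT2 libraries were below both ZT0 libraries in 19 genes, where this held for 24.9% of all genes tested. They were above in 4 genes, where it held for 21.5%. With equal library totals the mean log2 value was lower at ZT2 in 29 genes, where it was in 54.2% of all genes. After quantile normalization it was lower in 27, where it was in 48.5% of all genes.

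For ZT2 against ZT0, the counts by complex were as follows, and no difference between complexes was tested. In complex I, 11 of 12 genes had a lower mean log2 value at ZT2, with a median log2 change of -0.22. In the ATP synthase 7 of 10 did, with a median of -0.24, and in complex IV 5 of 6 did, with a median of -0.68. In complex II, 2 of 4 genes were lower, with a median of 0.023. In complex III, 4 of 7 were lower, with a median of -0.37. Uqcr10, a small subunit, had higher values at ZT2, with 217 and 299 RPKM in the ZT0 libraries, 406 and 354 in those of ZT2 and 315 and 349 in those of ZT12. Its log2 change at ZT2 was 0.57 (SE 0.20, adjusted p = 0.31, limma). Among the highest genes, Atp5g3 had a log2 change of -0.49 (SE 0.15, adjusted p = 0.25, limma).

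**Figure D3:**
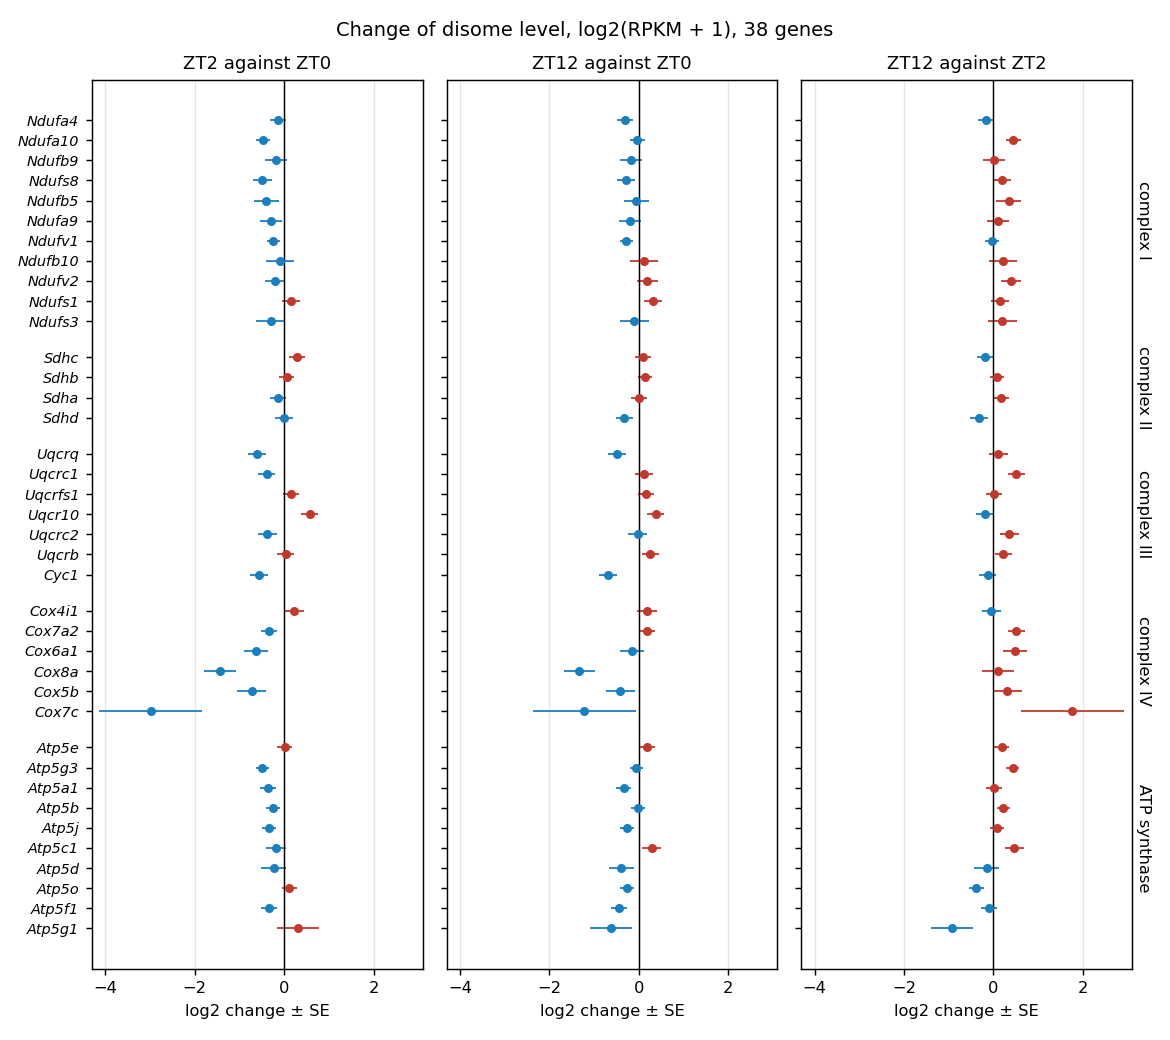
Log2 change of disome level, on the log2(RPKM + 1) scale with the SE from limma as bars, for 38 of the 39 genes in the 3 comparisons of time points. Points left of 0 were lower at the first named time, and most of them lie there for ZT2 against ZT0, with Cox7c and Cox8a the farthest out.

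Cox8a (ENSMUSG00000035885) had the smallest p of the 39 genes in this comparison. It encodes the liver form of a small subunit of complex IV. Cox8a had 409 and 296 RPKM in the ZT0 libraries, 185 and 89.0 in those of ZT2 and 119.9 and 158 in those of ZT12. Both ZT0 libraries were above the other 4, and the ZT2 and ZT12 libraries overlapped. It rested on 597 and 472 reads in the ZT0 libraries, 236 and 142 in those of ZT2 and 325 and 404 in those of ZT12. Its log2 change at ZT2 was -1.43 (SE 0.35, adjusted p = 0.21, limma), and at ZT12 against ZT0 it was -1.33 (SE 0.35, adjusted p = 0.15, limma). In 17 alternative fits for ZT12 against ZT0, the log2 change stayed between -1.57 and -1.10 and the adjusted p ran from 0.026 to 0.67, with 5 of them under 0.05. These were limma with array weights (0.028), voom with limma on reads (0.026), limma on the 4 libraries compared alone (0.030), and limma without ZT2 replicate 1 or ZT2 replicate 2. The fit on 4 libraries and those without a ZT2 library all gave a log2 change of -1.33 (SE 0.21). The spread between the ZT2 libraries does not enter any of them, so they are nearly the same test and do not count separately. For ZT2 against ZT0, the log2 change ran from -1.96 to -0.91 and the adjusted p from 0.025 to 0.94 over 17 alternatives. Limma called it there only without ZT2 replicate 1 (log2 change -1.96, adjusted p = 0.025), with the remaining ZT2 library assumed to vary like the other groups. Without ZT2 replicate 2 the log2 change was -0.91, with an adjusted p of 0.16 in limma.

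Cox7c and Cox5b, also of complex IV, had SEs above the median of the 39 genes. Cox7c had a log2 change of -2.98 (SE 1.15, adjusted p = 0.33, limma). Because 1 library was at 0, the pseudocount set this size, and pseudocounts of 0.1 and 5 gave -4.64 and -1.84. Without ZT2 replicate 1, the library at 0, it was -0.86. Without ZT2 replicate 2, limma called Cox7c (adjusted p = 0.015), but the ZT2 value was then the single library at 0, so no size is given. Cox5b had a log2 change of -0.73 (SE 0.32, adjusted p = 0.38, limma), and -0.22 or -1.23 when replicate 1 or replicate 2 of ZT2 was left out.

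**Figure D4:**
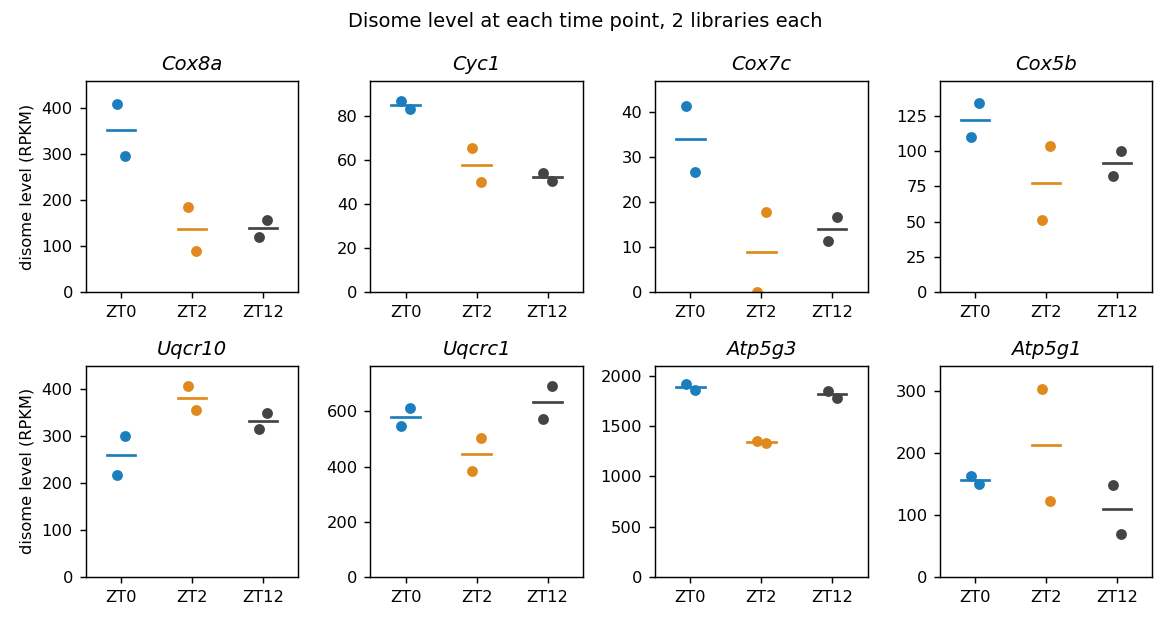
Disome level in RPKM, on axes that start at 0, for 8 genes at ZT0, ZT2 and ZT12, with 1 point per library and a line at the mean of the 2 libraries. Cox8a, Cyc1, Cox7c and Cox5b were highest at ZT0 in both libraries, and Uqcr10 was lowest there in both. Atp5g3 and Uqcrc1 were lowest at ZT2 in both, and the ZT2 libraries of Atp5g1 lay far apart.

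Between ZT0 and ZT12, 0 of 39 genes were called by limma, where 0.946% of all genes were. At an unadjusted p under 0.05, limma counted 4 genes, 0 higher and 4 lower, where 14.5% of all genes did, 6.14% higher and 8.34% lower. Voom on reads called 1, Cox8a. The mean log2 value was lower at ZT12 in 25 genes and higher in 14, where 50.8% and 49.2% of all genes were. The median log2 change was -0.089 against -0.0072 over all genes, and it was 0.040 without ZT12 replicate 1. Scaling to equal library totals, which moves all genes of a library alike, gave 19 lower and 20 higher, where 43.0% of all genes were lower. The median of the 39 genes minus that of all genes was -0.081 as deposited and -0.067 with equal totals, and 25 genes lay below the median of all genes in both. After quantile normalization 19 genes were lower, where 48.5% of all genes were, and this difference was 0.013. The libraries did not overlap in 17 genes that were lower at ZT12, where this held for 27.8% of all genes, and in 8 that were higher, where it held for 26.6%. By complex, as deposited, 9 of 12 genes of complex I and 8 of 10 of the ATP synthase had a lower mean log2 value at ZT12. In complex IV 4 of 6 did, in complex III 3 of 7 and in complex II 1 of 4. Cyc1 had a log2 change of -0.69 (SE 0.19, adjusted p = 0.17, limma). With array weights its adjusted p in limma was 0.045, and over 17 alternatives it ran from 0.045 to 0.74. Atp5a1 had 1751 and 1767 RPKM in the ZT0 libraries, 1281 and 1471 in those of ZT2 and 1249 and 1544 in those of ZT12, with both ZT0 libraries highest, and a log2 change of -0.34 (SE 0.17, adjusted p = 0.42, limma). Atp5b had 1508 and 1519.9 RPKM in the ZT0 libraries, 1222 and 1335 in those of ZT2 and 1428 and 1556 in those of ZT12, and its ZT12 libraries enclosed those of ZT0.

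Between ZT2 and ZT12, 0 of 39 genes were called by limma, where 2.06% of all genes were. At an unadjusted p under 0.05, limma counted 4 genes, all higher at ZT12, where 19.2% of all genes did, 10% higher and 9.17% lower. Voom on reads called 0. The mean log2 value was higher at ZT12 in 27 genes and lower in 12, where 52.3% and 47.7% of all genes were. The median log2 change was 0.11 against 0.028 over all genes. It was 0.030 without ZT2 replicate 1 and 0.031 without ZT12 replicate 2, and with equal library totals it was 0.22 against 0.12 over all genes. The libraries did not overlap in 8 genes that were higher at ZT12, where this held for 23.6% of all genes, and in 2 that were lower, where it held for 22.3%. The 4 genes of the unadjusted count were Ndufa10, Uqcrc1, Cox7a2 and Atp5g3. The log2 change of Atp5g3 was 0.43 (SE 0.15, adjusted p = 0.18, limma). For Uqcrc1 it was 0.52 (SE 0.20, adjusted p = 0.22, limma), and 0.32 without ZT2 replicate 1. Atp5g1 had -0.92 (SE 0.47, adjusted p = 0.34, limma), from ZT2 libraries that differed 2.48-fold and ZT12 libraries that differed 2.17-fold. It was -0.27 without ZT2 replicate 1, -1.57 without ZT2 replicate 2, -1.48 without ZT12 replicate 1 and -0.37 without ZT12 replicate 2. Cox7c had 1.77 (SE 1.15, adjusted p = 0.45, limma), which was 3.37 with a pseudocount of 0.1, 0.82 with 5, and -0.35 without ZT2 replicate 1. Without ZT2 replicate 2 limma called it (adjusted p = 0.010), again against the single library at 0. This comparison shares its ZT2 libraries with the first and its ZT12 libraries with the second, and those share the ZT0 libraries, so the 3 sets of values are not independent.

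The moderated F test of limma over the 3 time points called 0 of 39 genes, where 1.26% of all genes were called. At an unadjusted p under 0.05 it counted 5, where 18.6% of all genes did, and voom on reads called 1, Cox8a. By mean RPKM as deposited, 22 genes peaked at ZT0, 11 at ZT12 and 6 at ZT2, where 31.9%, 34.7% and 33.4% of all genes tested did. The lowest mean was at ZT2 for 21 genes, ZT12 for 10 and ZT0 for 8, where it was for 35.2%, 34.1% and 30.7% of all genes. These courses rank mean values without a test of their order, and they were not counted on other scales. Equal library totals raised the genes with a higher mean log2 value at ZT12 than at ZT0 from 14 to 20. Over all genes the share rose from 49.2% to 57.0%. The division of peaks between ZT0 and ZT12 may therefore depend on the scale.

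Sums weight the genes by their level. Summed over the 39 genes, the level was 21494 and 22254 RPKM in the ZT0 libraries, 19817 and 18984 in those of ZT2 and 20246 and 21519.7 in those of ZT12. Both ZT2 libraries were below the other 4. The 10 ATP synthase genes summed to 9636 and 9904 RPKM in the ZT0 libraries, 8435 and 8236 in those of ZT2 and 9184 and 9347 in those of ZT12. On this deposited scale the 3 time points did not overlap. Equal library totals move the median log2 change of all genes for ZT12 against ZT0 from -0.0072 to 0.074, and the means of this sum were then 9578 RPKM at ZT0, 8130.2 for ZT2 and 9706 for ZT12. The order of ZT0 and ZT12 in this sum therefore depended on the scale. The complex III genes summed to 2874 and 3028 RPKM in the ZT0 libraries, 2488 and 2518 in those of ZT2 and 2761 and 2795 in those of ZT12. Here too the time points did not overlap as deposited, with ZT2 lowest. With equal totals, the ZT12 and ZT0 means of complex III were 2910.4 and 2893 RPKM, so their order also depended on the scale. The complex I genes summed to 3812 and 3603 RPKM in the ZT0 libraries, 3163 and 3352 in those of ZT2 and 3358 and 3174 in those of ZT12. As deposited, the ZT0 libraries were above the others, and without Ndufa4 the ZT12 libraries of complex I enclosed those of ZT0. With equal totals, the means of complex I with Ndufa4 were 3635 RPKM at ZT0, 3178 for ZT2 and 3422 for ZT12. The complex II genes, at 1883 and 2007 RPKM in the ZT0 libraries, 2270.1 and 1956 in those of ZT2 and 1925 and 2098 in those of ZT12, and the complex IV genes, at 3289 and 3713 RPKM in the ZT0 libraries, 3461 and 2922 in those of ZT2 and 3017 and 4106 in those of ZT12, overlapped between all time points. With Ndufa4 added, the complex IV genes summed to 5401 and 5573 RPKM in the ZT0 libraries and 5330 and 4649 in those of ZT2. In the ZT12 libraries they summed to 4845 and 5511 RPKM. As deposited, the ZT0 libraries were then above those of ZT2, and the ZT12 libraries overlapped with both. The sums are given as a description, and no test was run on them.

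**Figure D5:**
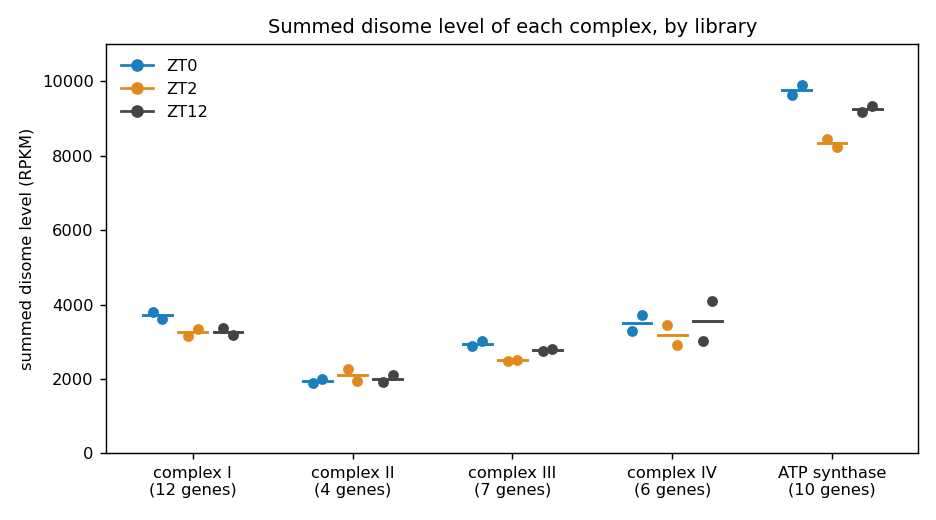
Summed disome level in RPKM of the listed genes of each complex, with 1 point per library and a line at the mean of each time point. The ATP synthase genes summed to 8236 and 8435 RPKM at ZT2, below the other libraries, and the complex II genes overlapped between time points.

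As a share of recovered reads, the 39 genes took 1.498% ± 0.0428 at ZT0, 1.304% ± 0.0524 at ZT2 and 1.529% ± 0.116 at ZT12 (SD, n = 2 each). The lowest library was ZT2 replicate 1, at 1.267% (95% exact Clopper-Pearson interval 1.258 to 1.276). The highest was ZT12 replicate 2, at 1.611% (1.604 to 1.618). These intervals cover counting error only, and the libraries of a time point differed by more than that.

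The spread between replicates was smallest at ZT0. Over the 39 genes, the median SD of log2 values between replicates was 0.094 for the ZT0 libraries, 0.27 for ZT2 and 0.19 for ZT12. Over all tested genes it was 0.13, 0.28 and 0.19 in the same order. The replicates differed by more than 2-fold in 0 genes at ZT0, where 4.36% of all tested genes did. At ZT2 they did in 6, Ndufs3, Ndufb10, Cox5b, Cox7c, Cox8a and Atp5g1, where 22.2% of all genes did, and at ZT12 in 1, Atp5g1, where 10.9% did. At ZT2, replicate 2 was below replicate 1 in 10 of the 14 genes shorter than 500 nucleotides and in 6 of the 25 longer ones. At ZT12 this was so in 8 of 14 and 7 of 25, and at ZT0 in 6 of 14 and 12 of 25. Spearman's rho between the difference of replicates and length was 0.33 for ZT2, 0.27 for ZT12 and -0.074 for ZT0 over the 39 genes, and 0.10, 0.095 and -0.087 over all tested genes, a description across genes of the same libraries.

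Promoter windows of these genes were read from RefSeq, build GRCm38.p6, from 250 bases before to 50 after the annotated start, and 37 of the 49 genes were matched by symbol in 40 windows. Ndufs1, Ndufb9, Sdhc, Uqcrc2, Uqcrq, Uqcrb, Cyc1, Cox4i1, Cox6c, Atp5a1 and Atp5f1 were among those not matched. NRF1, nuclear respiratory factor 1, and GABPA, an ETS family factor, are known regulators of nuclear genes for the respiratory chain. The letters GCGCA, then any base, then GCGC, for NRF1, were found on either strand in 9 of the 40 windows (22.5%), where 4.60% of all 32851 windows held them. The letters CCGGAAG, for ETS factors, were found in 12 (30%), where 8.86% of all windows held them. The windows compared were not matched for base content or expression, so whether these shares are particular to this pathway was not tested. Sdhd and Cox6a1, among the genes with disome values, held both. Matches are printed for genes whose disome values were described, to show the match and the bases around it, with the match in capitals and the sequence on the strand of the gene. A match describes the letters only, and the disome data do not measure the use of these windows.

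The NRF1 letters of the catalytic complex II gene Sdha, the anchor gene Sdhd, the gamma gene Atp5c1 and the c subunit gene Atp5g3 were these.
Sdha (chr13:74350231-74350260, minus strand): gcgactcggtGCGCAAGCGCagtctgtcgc
Sdhd (chr9:50603909-50603938, minus strand): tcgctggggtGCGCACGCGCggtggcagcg
Atp5c1 (chr2:10080430-10080459, minus strand): ctgagctcccGCGCACGCGCactgagtccc
Atp5g3 (chr2:73911295-73911324, minus strand): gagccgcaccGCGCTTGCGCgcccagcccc
The ETS letters of Cox8a and of Atp5e, the gene with the highest disome level, were these.
Cox8a (chr19:7217605-7217631, minus strand): ttccgaaataCTTCCGGctcgggcgtc
Atp5e (chr2:174464187-174464213, minus strand): acggccacagCTTCCGGtagccgctcg
The Sdha window held 3 matches to the NRF1 letters and the Cox8a window 2 to the ETS letters, of which 1 each is shown. In Atp5g3, Cox8a and Atp5e the capitals are the reverse complement of the letters searched.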

How the data were processed

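Disome profiling libraries of pooled liver lysates were analysed, 6 in all and 2 per time point. The authors deposited 1 table of RPKM values per library, with no header. Tools named in the submitters' processing notes are STAR, StringTie, edgeR, Bowtie2 2.3.0, cutadapt and CASAVA 1.82, and the builds are GRCm38.p2 and mm10. What each was used for, and the gene filter, were not given in the sources used here. Within a gene, the deposited RPKM were whole reads times 1 constant per library over a whole length, to a tolerance of 1e-06 reads, for 100% of genes. The recovery set its unit of length to 3 nucleotides, and under that setting lengths were multiples of 3 for 95.2%. For each gene the shortest length that fitted was taken, so its length and reads could both be understated by a common factor. The constants followed the upper quartile of reads.

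Limma 3.58.1 in R 4.3.3 was fitted to log2(RPKM + 1), a scale that understates changes of low genes, with a mean per time point, a variance trend and 3 residual degrees of freedom, and was tested on simulated data. P-values measure only the spread between these libraries. Libraries with the same replicate number did not deviate together (r = -0.076, -0.019 and 0.018 across genes), and were not treated as pairs. Alternatives changed the pseudocount, filter, scaling, prior, weights, block, libraries and test.

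Gene symbols come from the list that defines the genes. The genes and the other lists were chosen with earlier results of these data known. Other genes of the pathway and cell type markers, listed by symbol, could not be matched to identifiers and were not tested. By rule, each library's value was given for the 2 highest and the lowest gene of each complex, the 3 largest changes per comparison, the Atp5g genes, and genes whose replicates differed over 2-fold. Uqcr10, Atp5a1 and Atp5b were added after their values were seen. For 1 gene, values of its own are not reported here, and counts and sums include it.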

Additional observations from a re-analysis of the deposited data

How the results depend on the processing

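With the replicate block, limma called 0 of the 39 genes in each of the 3 comparisons and in the F test. The pseudocounts 0.1 and 5, no filter or 5 RPKM, equal totals, quantile normalization, the prior without a trend and a threshold of 0.1 also gave 0. Array weights gave 2 genes for ZT12 against ZT0 and 1 for the F test, voom gave 1 and 1, and a fit of only the 4 libraries compared gave 1 for ZT12 against ZT0. Left-out libraries gave 0 to 1 in each comparison and 0 to 2 in the F test, the calls coming from fits without a ZT2 library. Where 1 library stands for a time point, it is assumed to vary like the others. The median log2 change ranged over the left-out libraries from -0.33 to -0.16, -0.14 to 0.040 and 0.030 to 0.17. For ZT12 against ZT0 it was 0.0065 with equal totals and 0.025 after quantile normalization, where the median of all genes was 0.074 and 0.012.

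Scaled to the same total, the summed RPKM was 3422 for complex I at ZT12, 2441 and 2910.4 for complex III at ZT2 and ZT12, and 9578, 8130.2 and 9706 for the ATP synthase at ZT0, ZT2 and ZT12. On the deposited scale and without the Atp5g genes, the ATP synthase sums were 7727, 6781 and 7344 RPKM at ZT0, ZT2 and ZT12. With the Atp5g genes they were 9769.9, 8336 and 9265 RPKM on that scale. The largest shift in the order of levels was 7, 6 and 7 places with the mean of ZT0, ZT2 or ZT12 alone. Cox7c had the fewest reads of the 39 genes in every library. Of the values for named genes under other settings, 9 gained a call and 7 changed direction without one.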
